A study of Mus musculus with 4 samples.

Results

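Dentate granule cells are the principal neurons of the dentate gyrus, the gate through which cortical input enters the hippocampus. The values given here are those of 10 genes known as markers of these cells, namely Prox1, Dsp, Lct, Calb1, Tdo2, Stxbp6, Trpc6, Npnt, Glis3 and Pdzd2. They were found by matching their symbols to the mouse Ensembl identifiers of the count table, where all 10 were listed among 55414 genes. Of these genes 6 were lower in Stra8 knockout (KO) than in wild-type (WT) libraries, 1 was higher and 3 did not pass the test (edgeR, Benjamini-Hochberg adjusted p under 0.05 over all genes). Of all genes tested, 3.19% were lower and 3.35% higher by the same rule. These shares cover tested genes of every level, and shares among genes of like level were not computed. The 10 genes were chosen with earlier results of these data known, so the contrast is a description only. The sizes were unequal. Tdo2, Lct and Dsp fell by 42% to 55%, Prox1 and Glis3 by 17% to 21% and Calb1 by 11%, while Npnt rose by 17%.

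The study compared 2 WT and 2 KO mouse libraries by bulk messenger RNA sequencing. Its design describes mice of both genotypes with the pStra8-GFP reporter (green fluorescent protein under the promoter of Stra8) and positive cells that were sorted from the hippocampus. The KO mice lack Stra8, a gene best known for starting meiosis in germ cells. The sample labels give brain as the tissue and only the genotype as a difference. In the count table the column headers of both KO libraries also carry the tag Huang, which those of both WT libraries lack. What the tag means was not stated, and anything it stands for cannot be told apart from genotype. Nothing on age, sex, strain, treatment or the number of mice behind a library was stated in the labels used here, so the p-values compare these libraries, whose spread may be technical.

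A mature granule cell keeps its identity through Prox1, a homeobox transcription factor that it switches on early and holds on for life. Its calcium transients are buffered by calbindin, the product of Calb1, and its axons, the mossy fibres, contact CA3 pyramidal cells and hilar neurons. None of the 10 genes belongs to granule cells alone. Calb1 is also a classic gene of cerebellar Purkinje cells, Prox1 is also transcribed in interneurons of caudal origin, and Dsp, Lct and Tdo2 are best known from skin and heart, intestine and liver.

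Total counts ranged from 71097417 to 82172740, and Stra8 itself had only 1 to 7 reads per library, so this gene cannot serve as a check of the genotypes. Genes known from outside the hippocampus were present in every library. Gabra6, a receptor subunit of cerebellar granule cells, had 24.2 and 24.3 CPM (counts per scaled library size) in WT and 10.96 and 11.01 CPM in KO. Ttr, the transthyretin gene of the choroid plexus, had 560.5 and 559.9 CPM in WT and 388 and 383 CPM in KO. Not one of the 13 marker lists used below had a matched gene at 0 reads in any library. The libraries are therefore called WT and KO here, and not granule cells.

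The promoters of the genes with the largest falls, of Prox1 and of Npnt are shown because these genes moved by different amounts or in different directions. Each line holds the 250 bases before the annotated start, 5′ to 3′ along the gene, from RefSeq on build GRCm38.p6. The capitals in Prox1 mark its one match to CAGATG, an E-box of the kind that NEUROD factors bind.
Prox1: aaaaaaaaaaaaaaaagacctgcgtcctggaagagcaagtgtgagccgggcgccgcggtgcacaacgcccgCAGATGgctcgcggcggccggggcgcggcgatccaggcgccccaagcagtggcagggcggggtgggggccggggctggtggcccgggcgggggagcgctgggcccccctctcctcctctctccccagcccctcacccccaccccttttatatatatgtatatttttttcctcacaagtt
Dsp: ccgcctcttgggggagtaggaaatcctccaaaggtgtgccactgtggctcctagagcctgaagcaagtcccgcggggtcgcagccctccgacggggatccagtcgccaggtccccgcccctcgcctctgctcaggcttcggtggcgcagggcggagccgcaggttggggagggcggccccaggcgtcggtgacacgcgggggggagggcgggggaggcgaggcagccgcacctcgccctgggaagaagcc
Lct: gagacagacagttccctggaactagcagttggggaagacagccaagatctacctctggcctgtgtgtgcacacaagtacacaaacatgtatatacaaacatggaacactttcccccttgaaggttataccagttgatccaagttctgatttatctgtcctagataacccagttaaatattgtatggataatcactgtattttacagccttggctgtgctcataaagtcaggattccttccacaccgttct
Tdo2: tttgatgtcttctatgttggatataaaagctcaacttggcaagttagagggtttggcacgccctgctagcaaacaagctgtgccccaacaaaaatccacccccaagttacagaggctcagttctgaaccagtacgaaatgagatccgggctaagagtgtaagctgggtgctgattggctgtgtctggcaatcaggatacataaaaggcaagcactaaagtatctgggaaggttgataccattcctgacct
Npnt: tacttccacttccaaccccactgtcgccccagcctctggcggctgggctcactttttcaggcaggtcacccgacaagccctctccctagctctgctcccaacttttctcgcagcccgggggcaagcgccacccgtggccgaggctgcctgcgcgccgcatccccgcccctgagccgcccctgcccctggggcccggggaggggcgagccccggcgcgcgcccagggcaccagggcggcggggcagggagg

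These windows lie at chr1:190170828-190171077 (minus strand) for Prox1, chr13:38151044-38151293 (plus strand) for Dsp and chr1:128328319-128328568 (minus strand) for Lct. Those of Tdo2 and Npnt lie at chr3:81975729-81975978 (minus strand) and chr3:132950292-132950541 (minus strand). The table held 11 promoters for 9 of the 10 genes (all but Calb1), with 2 starts each for Prox1 and Npnt and the first one printed. The 3 motifs CAGATG, CNCCTCAG and TGACTCA were searched on both strands, and they share no overlapping match here. Matches were counted per gene for the 9 genes, over their 11 promoters, but per promoter for all promoters, so the 2 shares differ in unit. CAGATG was found in 1 of the 9 genes, against 14.4% of all 32851 promoters in the table. CNCCTCAG, known as the motif of STRA8 in germ cells, was found in 0 of the 9, against 6.42% of all promoters. The AP-1 motif TGACTCA was found in 0 of the 9, against 4.46%. No match says only that these letters are not in these windows. Base composition differed between the printed promoters, with G or C at 74.0% of the Npnt bases, 72.4% of Dsp, 64.8% of Prox1, 46.4% of Tdo2 and 42.8% of Lct, against 53.2% over all promoters.

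Prox1 (ENSMUSG00000010175) had levels of 56.4 and 56.8 CPM in the WT libraries, against 47.6 and 46.0 CPM in the KO libraries. Both KO libraries lay below both WT libraries, and the gap between genotypes was larger than the gap within either. The mean ± SD over n = 2 libraries went from 56.6 ± 0.29 CPM in WT to 46.8 ± 1.14 CPM in KO. This is -0.27 on the log2 scale (SE 0.035), with adjusted p = 6.44e-06 in edgeR. The antisense gene Prox1os shares 133 exon bases with Prox1 in the GENCODE vM21 annotation. It had 57 to 119 reads per library against 3257 to 4658 for Prox1, and no strand setting is given for the counting.

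Glis3 (ENSMUSG00000052942), the other transcription factor among the 10, encodes a GLI-similar zinc finger protein. It had 8.03 and 7.83 CPM in WT and 5.96 and 6.56 CPM in KO, with no overlap between genotypes. The difference was -0.34 on the log2 scale (SE 0.091), and adjusted p = 0.0200 in edgeR. This call was lost when 1 library was left out, without WT library 1 (log2 fold change -0.32, edgeR adjusted p = 0.0968) and without KO library 1 (-0.27, edgeR adjusted p = 0.185). DESeq2 did not call it either (adjusted p = 0.0748).

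**Figure D1:**
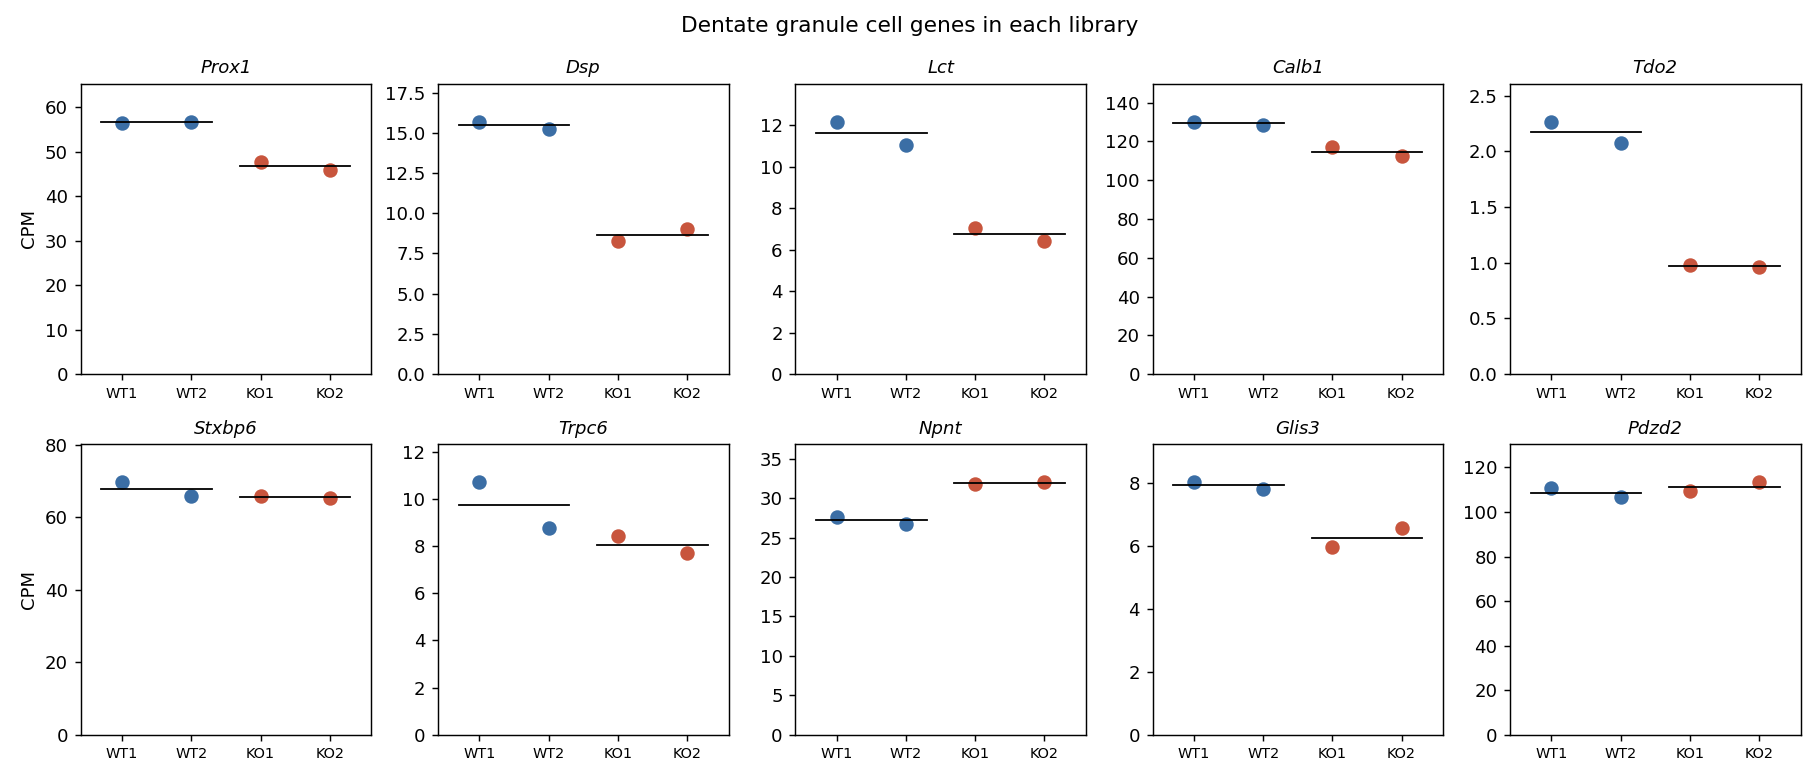
Level of each of the 10 genes in CPM (vertical axis, from 0) in WT libraries 1 and 2 (blue) and KO libraries 1 and 2 (red). Points are libraries and lines are genotype means. Dsp, Lct and Tdo2 show the widest gaps relative to their WT level, Stxbp6 and Pdzd2 overlap, and Npnt alone of the 10 is above WT in both KO libraries.

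Dsp (ENSMUSG00000054889) encodes desmoplakin, which ties desmosomes to intermediate filaments. It had 15.7 and 15.2 CPM in WT and 8.26 and 9.01 CPM in KO, so both KO libraries were far below both WT libraries. The level was 44.2% lower in KO, with a difference of -0.84 on the log2 scale (SE 0.073) and adjusted p = 1.64e-08 in edgeR. An antisense transcript model shares 499 of its exon bases and had 0 to 2 reads per library.

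Lct (ENSMUSG00000026354) encodes lactase, the milk sugar enzyme of the intestine, and is listed among granule cell markers of the mouse. It had 12.2 and 11.02 CPM in WT and 7.05 and 6.41 CPM in KO. The level was 41.9% lower in KO, close to the change of Dsp, with -0.78 on the log2 scale (SE 0.085) and adjusted p = 7.03e-07 in edgeR.

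Tdo2 (ENSMUSG00000028011) encodes the tryptophan dioxygenase that opens the kynurenine pathway. It was the least abundant of the 10, with 183 and 170 reads in WT and 80 and 68 reads in KO. These correspond to 2.27 and 2.07 CPM in WT and 0.977 and 0.960 CPM in KO. The log2 fold change of -1.16 was the lowest of the 10 (SE 0.191; adjusted p = 0.000194 in edgeR). Its 95% interval, -1.56 to -0.77, was also the widest and overlapped those of Dsp (-0.99 to -0.69) and Lct (-0.96 to -0.61). Only 0.681% of all tested genes had a lower fold change than Tdo2, 1.88% a lower one than Dsp and 2.23% a lower one than Lct.

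Calb1 (ENSMUSG00000028222), the calcium buffer, had 130.3 and 128 CPM in WT and 117 and 113 CPM in KO. The genotypes did not overlap, and the level was 11.2% lower in KO. On the log2 scale this was -0.17 (SE 0.024), with adjusted p = 3.44e-05 in edgeR. The interval of Calb1 (-0.22 to -0.12) overlapped that of Prox1 (-0.35 to -0.20) and lay apart from those of Dsp, Lct and Tdo2.

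Trpc6 (ENSMUSG00000031997), a cation channel opened by diacylglycerol, had 10.7 and 8.77 CPM in WT and 8.40 and 7.69 CPM in KO. The KO libraries were lower, but the WT libraries differed from each other by more than WT library 2 differed from KO library 1. The log2 fold change of -0.27 did not pass (SE 0.093; adjusted p = 0.0902 in edgeR). Leaving out WT library 2 gave -0.41 and leaving out KO library 1 gave -0.34, and both were called (adjusted p = 0.00373 and 0.0475 in edgeR). Leaving out WT library 1 gave -0.12 (adjusted p = 0.729 in edgeR). It was also called with no expression filter (edgeR adjusted p = 0.0431) and with the replicate number as a block (0.0381).

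Npnt (ENSMUSG00000040998) encodes nephronectin, a matrix protein that binds integrins. It had 27.6 and 26.8 CPM in WT and 31.7 and 32.0 CPM in KO, so both KO libraries lay above both WT libraries. The difference was 0.23 on the log2 scale (SE 0.046), with adjusted p = 0.00162 in edgeR, against the direction of the other called genes. Of all tested genes 22.8% had both KO libraries above both WT libraries.

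Stxbp6 (ENSMUSG00000046314), which encodes the SNARE-binding protein amisyn, had 69.6 and 65.8 CPM in WT and 65.9 and 65.4 CPM in KO. The genotypes overlapped, and the log2 fold change was -0.044 (95% interval -0.11 to 0.023, edgeR adjusted p = 0.554). Pdzd2 (ENSMUSG00000022197), a scaffold with several PDZ domains, had 110.8 and 107 CPM in WT and 109 and 113 CPM in KO. Its log2 fold change was 0.034 (95% interval -0.021 to 0.088, edgeR adjusted p = 0.581). For both genes the interval holds no change of the size seen for Prox1.

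Over all 21592 genes tested the median log2 fold change was -0.00038, with 3.19% lower and 3.35% higher. The 10 granule cell genes had a median of -0.27, with 6 lower and 1 higher. All 10 passed the expression filter. In 7 of the 10 both KO libraries were below both WT libraries, a pattern that 22.9% of all tested genes showed. In bulk libraries fewer granule cells and less RNA of these genes per cell cannot be told apart.

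**Figure D2:**
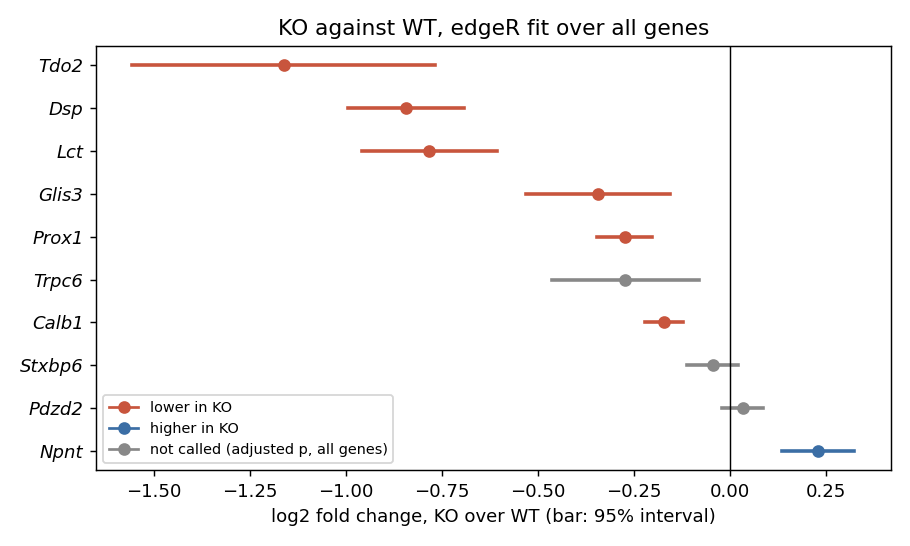
Log2 fold change of KO over WT (horizontal axis) for the 10 genes, with 95% intervals as bars, from the edgeR fit over all genes. The intervals of Dsp, Lct and Tdo2 lie wholly below -0.60, that of Npnt lies above 0, and those of Stxbp6 and Pdzd2 cross 0.

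The genes did not move as a unit. A ratio of reads within 1 library does not depend on the scaling between libraries, so each gene was set against Prox1. Dsp reads were 0.279 and 0.268 of Prox1 reads in the WT libraries and 0.174 and 0.196 in the KO libraries, and the KO mean was 0.676 of the WT mean. For Lct the ratio went from 0.216 and 0.194 to 0.148 and 0.139. The Tdo2 ratio went from 0.0402 and 0.0365 to 0.0205 and 0.0209, a KO mean of 0.540 of the WT mean. These 3 genes thus were lower relative to Prox1 in both KO libraries than in either WT library. The share of all tested genes whose ratio to Prox1 separates the genotypes, in either direction, was not computed, so these ratios are a description only.

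Other genes were higher relative to Prox1 in KO. Prox1 itself was 17.3% lower in KO, so a gene without any change of its own also gives a higher ratio. Of the genes that follow, only Npnt was called higher in the fit, while Stxbp6 and Pdzd2 were not called and Calb1 was called lower. Npnt reads were 0.489 and 0.471 of Prox1 reads in WT and 0.667 and 0.696 in KO, 1.42 times the WT mean. For Pdzd2 the ratio was 1.96 and 1.88 in WT and 2.30 and 2.46 in KO, and for Stxbp6 it was 1.23 and 1.16 in WT and 1.39 and 1.42 in KO. Calb1 was close to Prox1, with 2.31 and 2.26 in WT and 2.46 and 2.45 in KO, a factor of 1.07. The ratios of Trpc6 and Glis3 overlapped between genotypes. With 2 libraries against 2 an exact permutation test cannot go below p = 0.33 (two-sided), so these ratios carry no test.

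**Figure D3:**
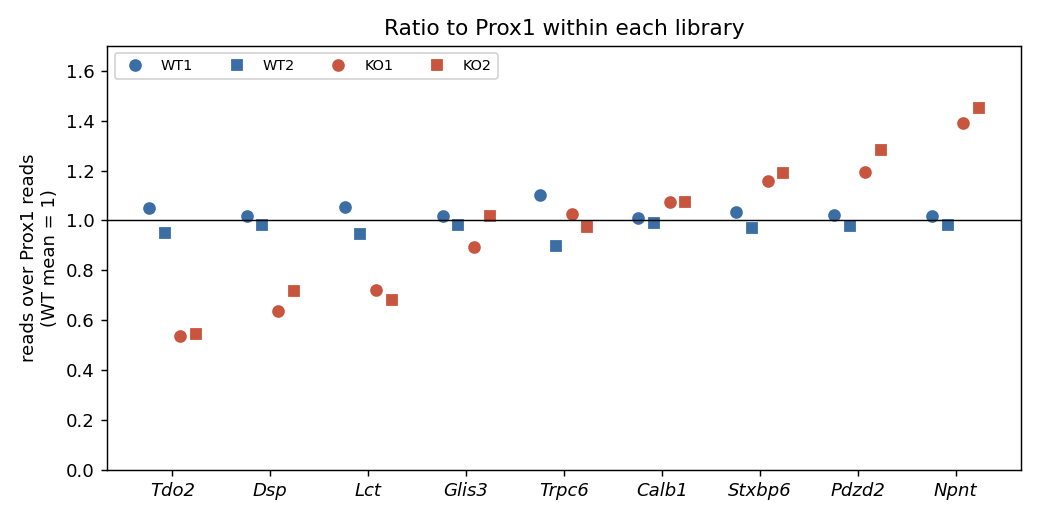
Reads of each gene over reads of Prox1 in the same library, divided by the WT mean of that ratio (vertical axis, from 0). Circles are libraries 1, squares libraries 2, WT blue and KO red. Tdo2, Dsp and Lct lie below 1 in both KO libraries, and Npnt, Pdzd2, Stxbp6 and Calb1 lie above 1.

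Levels were compared between genes as CPM per kilobase of exon. Exon lengths were those of GENCODE vM21, an annotation of another build than the counts. They enter both genotypes alike, but the order between genes rests on them. In WT the order was Calb1 (26.9 and 26.5 CPM per kilobase), Stxbp6 (13.1 and 12.4), Prox1 (6.72 and 6.77), Pdzd2 (6.01 and 5.79) and Npnt (5.48 and 5.32). Then came Trpc6 (2.11 and 1.73), Lct (1.90 and 1.72), Dsp (1.63 and 1.58), Glis3 (0.908 and 0.885) and Tdo2 (0.584 and 0.534). Trpc6 and Lct overlapped in WT, while every other pair of neighbours was separated in both WT libraries.

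In KO the order changed among 3 genes of similar level. Npnt (6.31 and 6.37 CPM per kilobase) stood above Pdzd2 (5.94 and 6.15), and Prox1 (5.67 and 5.48) stood below both. Prox1 thus had rank 3 in WT and rank 5 in KO. By CPM alone Pdzd2 stood above Prox1 and Prox1 above Npnt in both genotypes, so this change of order depends on the exon lengths used. The other 7 genes kept their places, and Trpc6 (1.66 and 1.52) was now clear of Lct (mean of 1.05).

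**Figure D4:**
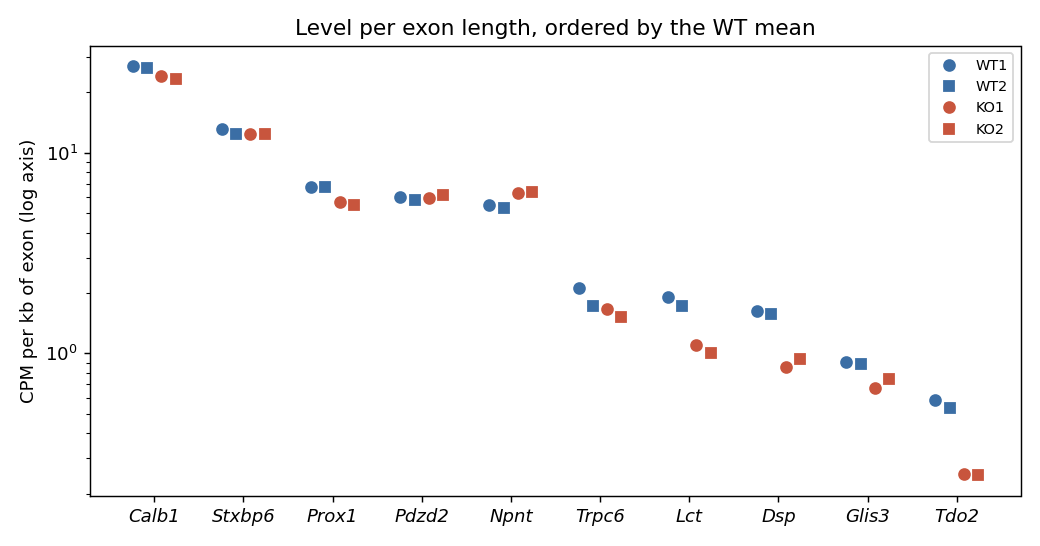
Level of each gene in CPM per kilobase of exon (vertical log axis), ordered by the WT mean. Circles are libraries 1, squares libraries 2, WT blue and KO red. Prox1, Pdzd2 and Npnt lie between 5.32 and 6.77 and change order between genotypes.

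A further 15 genes that mark granule cells were read in the same fit. Of these 8 were lower, 1 was higher and 6 did not pass, with a median log2 fold change of -0.11. DESeq2 called 5 of them lower. Il16, a cytokine gene, had 24.4 and 23.7 CPM in WT and 12.7 and 12.0 CPM in KO (log2 fold change -0.96). C1ql2, a synaptic organizer that granule cells release at mossy fibre terminals, had 22.3 and 23.8 CPM in WT and 15.3 and 14.5 CPM in KO (-0.63). Neurod1, a proneural transcription factor, had 42.7 and 43.3 CPM in WT and 23.4 and 26.0 CPM in KO (-0.80), and is also counted in the cerebellar granule cell list below. The adjusted p of these 3 genes in edgeR lay between 1.89e-11 and 7.52e-08. Gsg1l, a modulator of AMPA receptors and the 1 gene that was higher, is named here after its value was seen (log2 fold change 0.16). Of the 6 that did not pass, Plk5 had a log2 fold change of -0.11, and Dock10, Sipa1l2, Sema5a, Smad3 and Spata13 had values between -0.064 and -0.041.

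Markers of other cells moved with the granule cell genes. Of 15 cerebellar granule cell genes 11 were lower and 0 higher, with a median log2 fold change of -0.42, and their summed level was 739 and 756 CPM in WT and 553 and 557 CPM in KO. Cbln3, Fat2 and Gabra6 of this list had log2 fold changes of -1.23, -1.17 and -1.14, lower than those of Prox1 and Calb1 and near that of Tdo2. Of 14 Purkinje cell genes other than Calb1, 10 were lower and 1 higher, with a median of -0.35. Cbln3 and Car8 stand in both this list and the cerebellar granule cell list, so the counts, medians and sums of these lists are not independent. The summed level of that list with Calb1 was 1193 and 1189 CPM in WT and 991 and 993 CPM in KO. The Purkinje cell genes Pcp2, Car8 and Itpr1 had log2 fold changes of -1.36, -0.88 and -0.18, the last close to the -0.17 of Calb1. Choroid plexus genes were lower in 8 of 12 cases, with summed levels of 673 and 670 CPM in WT and 471 and 463 CPM in KO. The part of these cells in the falls of the 10 genes was not tested.

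Within the hippocampus, the CA3 and CA2 list had 5 of 11 tested genes lower and 0 higher, a median of -0.15, and summed levels of 666 and 674 CPM in WT and 597 and 585 CPM in KO. Its count of lower genes was 3 when WT library 1 was left out, and 2 when WT library 2 or KO library 2 was left out or with DESeq2. Homer3, a postsynaptic scaffold gene that Purkinje cells also transcribe, fell by 0.59 on the log2 scale. Of 9 tested CA1 genes 3 were lower and 1 higher, with a median of -0.063, summed levels of 544 and 543 CPM in WT and 535 and 523 CPM in KO. Of these 3 lower genes 1 lay close to the threshold (adjusted p = 0.0456 in edgeR). In the opposite direction, 10 of 11 genes of striatal projection neurons and 9 of 12 of neocortical projection neurons were higher, with medians of 0.29 and 0.15. The count of lower CA1 genes and that of higher neocortical genes also varied between the alternative fits. The 10 granule cell genes thus had a median below those of both pyramidal cell lists and above those of the cerebellar and choroid plexus lists. The other 15 granule cell genes had a median of -0.11, above that of the CA3 and CA2 list and below that of the CA1 list. The order against the CA3 and CA2 list therefore depends on which granule cell genes are taken. Differences between lists were not tested.

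**Figure D5:**
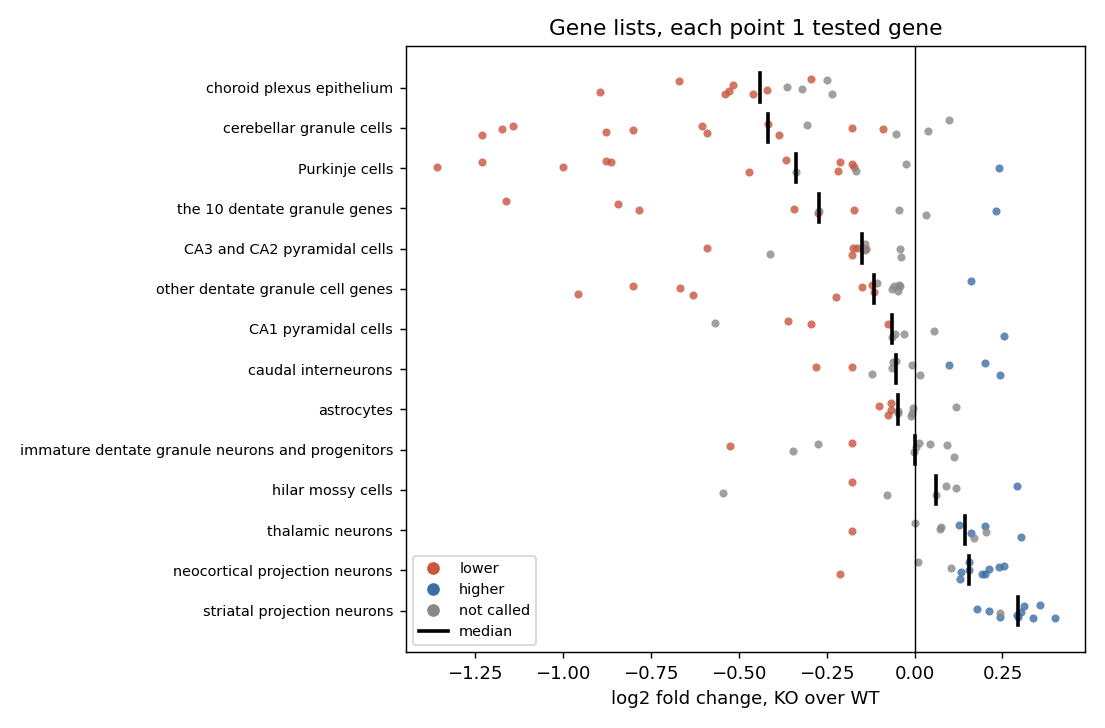
Log2 fold change of KO over WT (horizontal axis) for each tested gene of the 10 dentate granule genes and of 13 other lists, with the list median as a black line. Red points are genes called lower, blue higher and grey not called (edgeR, adjusted over all genes). The 10 genes have a median of -0.27, between the Purkinje cell list and the list of CA3 and CA2 cells. The other dentate granule cell genes have a median of -0.11, between the list of CA3 and CA2 cells and the CA1 list.

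Among 11455 other named genes with a mean of at least 5 CPM, the 3 whose log2 CPM over the 4 libraries lay closest to the median of the 10 were Chrd, Spns2 and Irak2. Chrd, which encodes the BMP antagonist chordin, had 42.9 and 41.1 CPM in WT and 35.8 and 34.6 CPM in KO. Spns2, a sphingosine phosphate transporter gene, had 67.6 and 65.7 CPM in WT and 56.7 and 55.5 CPM in KO. Irak2, a kinase gene of interleukin receptor signalling, had 22.4 and 21.8 CPM in WT and 18.7 and 18.1 CPM in KO. Their Euclidean distances to that median were 0.0216, 0.0247 and 0.0258 on the log2 scale, and with 4 libraries such likeness is a description only.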

How the data were processed

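The deposited file is 1 table of raw counts per gene for 4 mouse libraries, and counts were used as the authors deposited them. Poly(A) RNA was selected and strand-specific libraries were read as pairs, per the labels' protocols. The tools named are STAR 2.6.1c, featureCounts, FastQC and DESeq2, and the build is GRCm39, per the submitters' processing notes, which give no roles. The annotation release, strand setting and treatment of multi-mapping reads were not given in the sources used here. Of counts from 1 to 20, 72.8% to 74.3% were even, so both mates of a pair appear to be counted. Symbols matched 52081 of 55414 identifiers.

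The fit used edgeR 4.0.16 in R 4.3.3. Genes passed filterByExpr (minimum count 10), libraries were scaled by TMM (factors 0.997 to 1.005) and genotype was tested by glmQLFit and glmQLFTest, with Benjamini-Hochberg adjusted p under 0.05 over all genes as the call. CPM uses the TMM-scaled library total. The SE is the log2 fold change over the square root of F, and 95% intervals use the t quantile of the fit's degrees of freedom. Alternatives were DESeq2 1.42.0, limma-trend (limma 3.58.1), other scalings and filters, a replicate block, halved counts and each library left out.

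The 10 genes and the lists were chosen with earlier results of these data known. All 10 are described, with up to 4 genes per other list by smallest p in edgeR (of the lists described only in part, fewer), and the 3 nearest genes by distance. Of the genes this rule takes, 2 are not reported here. Simulated data for KO against WT served as a test (21593 genes, variance 2.5 times Poisson), where it called 34%, 58%, 82% and 90% of genes changed by 1.1-fold, 1.2-fold, 1.5-fold and 2-fold, all in the right direction. Of 169 simulated calls in all, 37 were of unchanged genes, so calls of very abundant genes and the counts over all genes are less certain. Of the 109 calls at mean counts up to 10517, the highest count of the 10 genes, 1 was of an unchanged gene. Every simulated gene had the same variance factor. In the same-genotype pairs of the 10 genes it ran from 0.012 (Tdo2, KO) to 15.6 (Trpc6, WT), though a single pair measures it only roughly. The rate of false calls therefore holds for the simulated setting only.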

Additional observations from a re-analysis of the deposited data

How the results depend on the processing

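No call of the 10 genes changed direction in the 12 alternatives, and of 119 values 112 kept direction and side of the threshold. The exceptions were Glis3 (lost in 3) and Trpc6 (gained in 4). Tdo2 had no adjusted p in DESeq2 (log2 fold change -1.16, unadjusted p = 1.21e-05). The count of lower genes among the 10 was 4 (DESeq2) to 7 and that of higher genes 1 throughout. With 1 library left out, where the lone library is assumed to vary like the others, the median of the 10 lay between -0.31 (WT library 2 left out) and -0.22 (WT library 1 left out), and KO library 2 left out gave -0.23. Over all genes, 483 to 828 were lower and 521 to 862 higher.

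The replicate numbers are shared between genotypes, but same-numbered libraries did not deviate together (r = 0.029 across 11909 genes, which are not independent replicates). With the replicate block 772 genes were lower and 818 higher, against 688 and 723 without it, and 7 of the 10 were lower, with a median of -0.27. The median of the caudal interneuron list was -0.053 and ranged from -0.059 to 0.028 with 1 library left out. It changed sign when WT library 1 (0.028) or KO library 2 (0.0051) was left out, and the cause was not tested. Counting error limits Tdo2 most.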

Other observations

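Immature granule neurons and their progenitors were also read. Of 10 genes 2 were lower and 0 higher, with a median log2 fold change of 0.0022 and members in both directions. Eomes, a transcription factor of intermediate progenitors that also marks unipolar brush cells of the cerebellum, had 11.9 and 11.8 CPM in WT and 7.79 and 8.77 CPM in KO (-0.52, edgeR adjusted p = 7.95e-05). Calb2, which encodes calretinin, fell by 0.18 on the log2 scale, and it is also a gene of hilar mossy cells and cerebellar granule cells. Igfbpl1, a marker of young neurons, had 4.31 and 4.39 CPM in WT and 3.29 and 3.57 CPM in KO and did not pass (-0.35, edgeR adjusted p = 0.0925). With 1 library left out the median of this list ranged from -0.024 (KO library 2 left out) to 0.0074 (WT library 1 left out), on both sides of 0.

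Of 7 hilar mossy cell genes 1 was lower and 1 higher, with a median of 0.061. The median was 0.034 when WT library 1 was left out and 0.014 when WT library 2 was left out, and 2 genes were higher when WT library 2 or KO library 1 was left out, with no expression filter and with the replicate block. The higher gene was Drd2, the dopamine D2 receptor gene, which striatal neurons also transcribe (log2 fold change 0.29, edgeR adjusted p = 6.64e-05). Of 11 genes of caudal interneurons, which transcribe Prox1, 2 were lower and 3 higher, with summed levels of 683 and 693 CPM in WT and 700.4 and 697 CPM in KO. Of 10 astrocyte genes 4 were lower and 0 higher, with a median of -0.047, and the median was -0.029 when WT library 1 was left out. When KO library 2 was left out, 1 was higher. Of 10 thalamic genes 4 were higher and 1 lower, with a median of 0.14, but only 2 were higher without WT library 1 and 1 without KO library 2.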
